A study of Bos taurus with 8 samples.

Results

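Cadherin and protocadherin genes were followed in the MIRA-Seq libraries of cultured bovine dermal fibroblasts. Members were all 3Kb windows on chromosomes 1 to 29 whose gene name in the deposited files began with CDH or PCDH and went on with digits (CDH) or with digits and capital letters (PCDH). This rule gave 2567 windows of 902984 in all, in 60 genes. The clustered protocadherins (names beginning with PCDHA, PCDHB or PCDHG) made up 27 genes with 134 windows, and 33 single genes (23 cadherins and 10 protocadherins) held the other 2433 windows. A further 352 windows with such names lay outside these chromosomes and were not members.

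The DNA came from un-treated dermal fibroblasts of 4 Holstein heifers (a dairy breed) and 4 Angus heifers (a beef breed), cultured to passage 5, with 1 library per animal. Heifers are female cattle that have not calved. By the study's account Holstein and Angus calves are reared differently, so breed and rearing cannot be told apart in these libraries. MIRA-Seq uses proteins that bind methylated CpG sites to pull down sonicated genomic DNA, so the number of reads in a window follows the amount of methylated CpG in it and is not a percentage of methylation. The libraries hold genomic DNA, so the fibroblast label could not be set beside expressed markers in them. The study also ran RNA-Seq on the same cultures, and those data were not used here. Levels are given as CPM, the reads of a window for every 1000000 reads in all windows of its library, and the level of a gene is the mean CPM of its windows. The libraries held 18691111 to 35525554 reads in windows. At this depth 3 reads, taken as the smallest count told from 0, corresponded to 0.0844 to 0.161 CPM, a floor that covers counting error only. Holstein 1 and Angus 3 had the lowest mean level in single cadherin and protocadherin windows, 0.365 and 0.338 CPM, against 0.457 to 0.579 CPM in the other 6 libraries, and the same order held over all windows with a gene name (0.715 and 0.625 CPM, against 0.867 to 0.990 CPM).

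Cadherins are calcium-dependent adhesion proteins of the cell surface. Type I and type II classical cadherins bind like molecules on the neighbouring cell through extracellular cadherin repeats, and catenins tie their cytoplasmic tails to actin. Protocadherins are the largest branch of the family and are best known from the nervous system. The PCDHA, PCDHB and PCDHG genes lie next to each other, and in the alpha and gamma groups many variable first exons, each with a promoter of its own and each coding for a whole extracellular domain, are spliced to shared constant exons. These promoters are known to be chosen at random in single neurons and to carry CpG methylation when silent. Fibroblasts of the skin are known for the mesenchymal CDH11 and CDH2 rather than the epithelial CDH1.

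The clustered protocadherins occupied chr7:53582546-54284545 (UMD v3.1), a stretch of 702 kb with 234 consecutive windows. Within it the level alternated sharply between neighbouring windows. Among the 134 clustered windows the highest level was in the last window of PCDHA9 (chr7:53636546-53639545, coding exon), with 9.41, 8.74, 9.87 and 9.66 CPM for Holstein 1 to 4 and 8.17, 8.41, 12.0 and 9.74 CPM for Angus 1 to 4. The window just before it, which also carried the name PCDHA9 but no coding exon, had a mean of 0.133 CPM. The window after it, PCDHA10, had a mean of 0.210 CPM. All 8 libraries thus showed a high window between a pair of windows near the floor. Of 11 PCDHA windows with a mean of at least 1 CPM and a neighbour on both sides, 10 were 10 times or more above at least 1 neighbour. The same held for 5 of 10 such windows of PCDHB and for 6 of 17 of PCDHG.

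**Figure D1:**
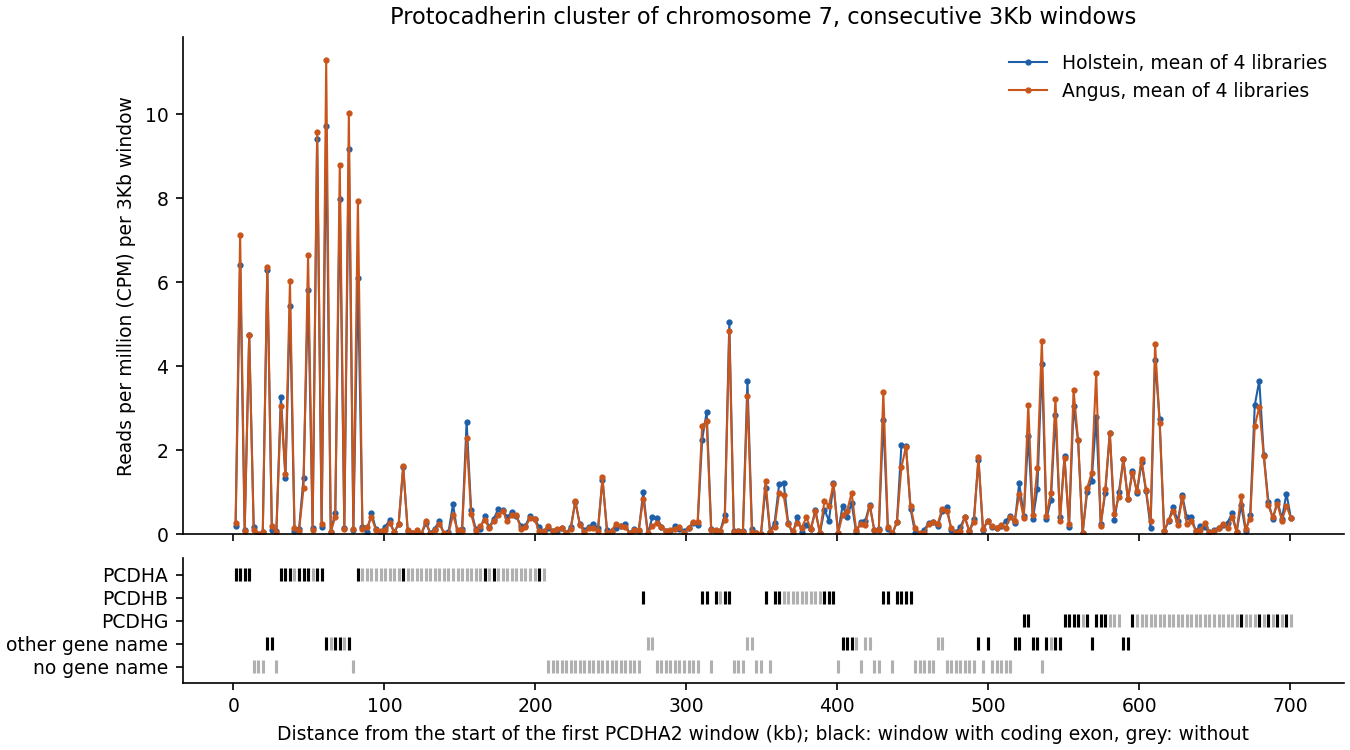
Mean CPM per 3Kb window along the protocadherin cluster of chromosome 7, by distance from its first window, with the mean of 4 Holstein libraries and of 4 Angus libraries as lines; marks below give the gene name group of each window, black with and grey without a coding exon. The highest windows lie at the left end, among PCDHA names and the loci between them, and the lines of both breeds follow the same peaks.

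The other clustered windows with the highest levels were all PCDHA windows with a coding exon. They were the first PCDHA13 window (chr7:53663546-53666545, 7.02 ± 1.51 CPM, SD, n = 8), the second PCDHA2 window (chr7:53585546-53588545, 6.78 ± 0.62 CPM), the second PCDHA9 window (chr7:53630546-53633545, 6.24 ± 1.15 CPM) and the first PCDHA3 window (chr7:53618546-53621545, 5.73 ± 0.87 CPM). Over the 17 PCDHA windows with a coding exon the mean was 2.88 ± 0.31 CPM, and over the 39 PCDHA windows without one it was 0.275 ± 0.065 CPM. PCDHB had 1.37 ± 0.19 CPM in 18 windows with a coding exon and 0.296 ± 0.059 CPM in 10 without. PCDHB genes are known as single coding exons, but some names covered more in the deposited files. PCDHB7 covered 11 windows, 2 with a coding exon, and PCDHB4 covered 4, 3 with a coding exon. PCDHG had 1.52 ± 0.24 CPM in 16 and 0.759 ± 0.11 CPM in 34. In each of the 3 groups the ranges of the 8 libraries with and without a coding exon did not overlap.

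Windows of the cluster that carried other gene names, mostly loci known by number only, had a mean of 1.74 CPM over 33 windows, up to 10.5 CPM. The 67 windows with no gene name had a mean of 0.237 CPM. The high level was therefore measured under other names in the same stretch as well.

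By gene, the clustered protocadherins ranged from 0.210 to 4.27 CPM per window, with a median of 1.38, and 18 of 27 reached 1 CPM. PCDHA9 was highest with 4.27 ± 0.53 CPM over 4 windows, followed by PCDHA2 with 3.51 ± 0.33 CPM over 2. PCDHA9 stood above PCDHA2 in all 8 libraries. PCDHA10 and PCDHGB3, each with 1 window, were lowest with 0.210 ± 0.066 and 0.210 ± 0.10 CPM, and did not differ beyond their spread. Gene names with many windows, PCDHA13 with 41 and PCDHGB4 with 37, cover the stretch of the constant exons and averaged 0.448 and 0.849 CPM, although their first windows stood at 7.02 and 3.32 CPM. Clustered protocadherin exons resemble each other in sequence, and how reads that match several places were counted is not given in the sources used here, so the split of reads between these genes is uncertain.

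Set against single genes, clustered windows had a higher mean level in all 8 libraries, 1.02 ± 0.10 CPM against 0.482 ± 0.088 CPM, where all windows with a gene name on these chromosomes had 0.861 ± 0.13 CPM. The ratio of clustered to single windows was 2.305, 1.66, 2.14 and 2.04 for Holstein 1 to 4 and 1.88, 2.09, 2.88 and 2.43 for Angus 1 to 4. The breeds overlapped. The mean ratio was 2.18 ± 0.37 (SD, n = 8) and 2.04 without Holstein 1 and Angus 3; by medians over windows it was 1.62. Windows with a coding exon were more frequent in the cluster, 51 of 134 against 325 of 2433. Among windows with a coding exon the ratio was 1.97 ± 0.31, and among windows without one 1.19 ± 0.10. Coding windows of single genes had 0.989 ± 0.14 CPM, near the 1.11 ± 0.19 CPM of all coding windows, whereas those of the cluster had 1.92 ± 0.19 CPM. Single-gene windows without a coding exon had 0.404 ± 0.084 CPM against 0.737 ± 0.098 CPM over all named windows without one. These ratios describe the windows chosen by name and were not tested.

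**Figure D2:**
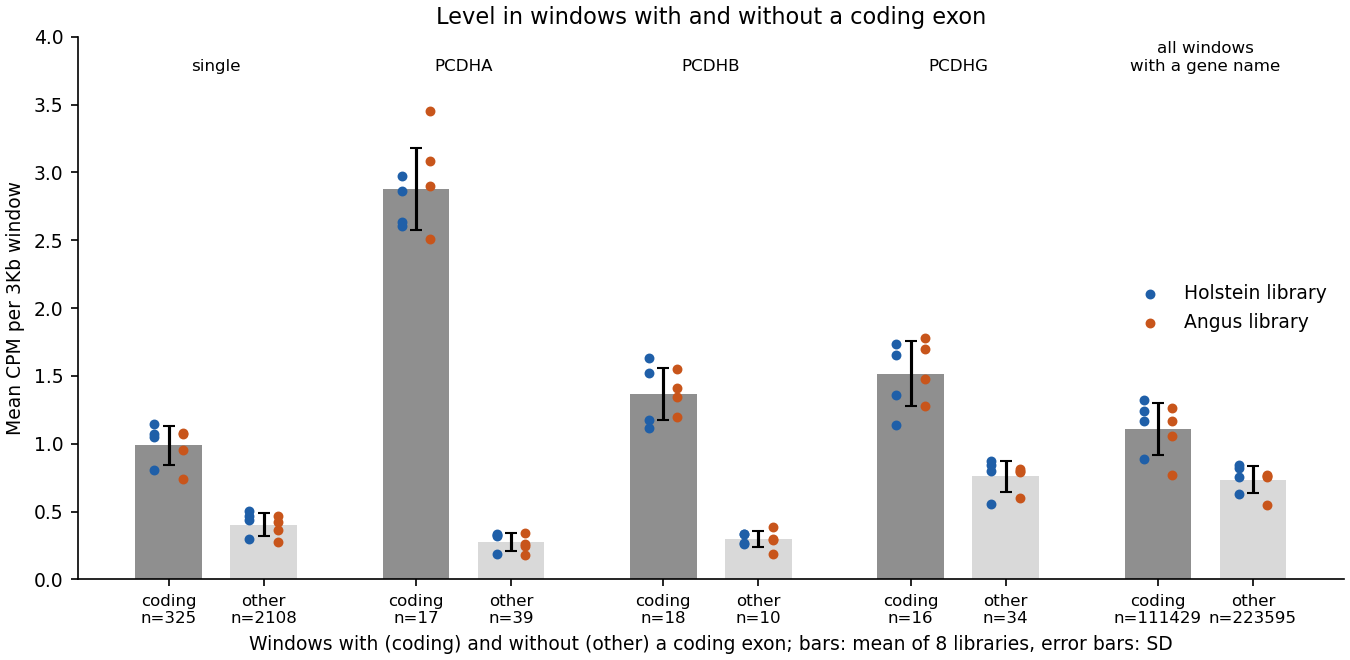
Mean CPM per 3Kb window in windows with a coding exon (dark bars) and without one (light bars), for single genes, PCDHA, PCDHB, PCDHG and all named windows of chromosomes 1 to 29; points are libraries and error bars the SD of 8. The PCDHA pair, 2.88 against 0.275 CPM, is the widest apart, and the pair of all named windows, 1.11 against 0.737 CPM, the closest in ratio.

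Among the single genes, the level differed far more between genes than between libraries. Of 33 genes, 10 had at least 1 CPM per window and 10 had less than 0.25. Short genes stood higher. The 11 genes of fewer than 10 windows held 7 of the 10 genes at 1 CPM or more, and across the 33 genes Spearman's rho of the number of windows with the level was -0.49. The share of windows with a coding exon, which was larger in short genes (rho -0.92 with the number of windows), had a rho of 0.61 with the level. These correlations are across genes of the same libraries and are given as descriptions.

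Type I classical cadherins averaged 1.01 ± 0.18 CPM over 278 windows, of which CDH4 alone held 162. CDH15, M-cadherin of muscle, was highest with 1.57, 2.07, 2.03 and 2.44 CPM for Holstein 1 to 4 and 1.66, 2.34, 1.36 and 2.45 CPM for Angus 1 to 4. CDH2, N-cadherin, was lowest with 0.256, 0.483, 0.362 and 0.448 CPM for Holstein and 0.446, 0.377, 0.216 and 0.334 CPM for Angus. Both genes had their lowest value of the breed in Holstein 1 and Angus 3, and neither separated the breeds. CDH1, E-cadherin of epithelia, had 0.476 ± 0.15 CPM over 9 windows, all with a coding exon, and 1 of these reached 1 CPM. The first windows of CDH2 and CDH1, at the 5′ end of the gene, had 0.152 ± 0.065 and 0.421 ± 0.17 CPM. CDH4, R-cadherin, had 1.33 ± 0.22 CPM. Of its 162 windows, 61.7% had a mean of at least 1 CPM, against 1.20% of the 83 windows of CDH2. The last CDH4 window (chr13:55671797-55674796) reached 5.52 ± 0.82 CPM and the first 0.793 CPM.

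Type II classical cadherins averaged 0.315 ± 0.067 CPM over 730 windows. The highest was CDH24 with 2.58 ± 0.52 CPM over 4 windows, and the lowest CDH9 with 0.125 ± 0.041 CPM over 48. CDH5, VE-cadherin of endothelium, had 2.20 ± 0.28 CPM, with 2.89 ± 0.60 CPM in its first window and 6.74 ± 0.79 CPM in the window next to last (chr18:34271798-34274797, coding exon 8). This window had 5.61, 6.32, 7.87 and 7.68 CPM for Holstein and 6.04, 6.50, 6.68 and 7.17 CPM for Angus, so the breeds overlapped. CDH11, OB-cadherin of mesenchymal cells, had 0.592 ± 0.14 CPM over 31 windows. Its first window stood at 0.783 ± 0.36 CPM and its highest, which held coding exon 1, at 2.71 ± 0.54 CPM.

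The other single cadherins averaged 0.864 ± 0.17 CPM over 507 windows, of which CDH13 alone held 326. CDH16, kidney cadherin, was highest with 1.86 ± 0.31 CPM and CDH17, liver-intestine cadherin, lowest with 0.582 ± 0.15 CPM. CDH23, which with PCDH15 forms the tip links of inner ear hair cells, was near CDH4 in its share of windows at 1 CPM or more. It had 1.08, 1.54, 1.52 and 1.54 CPM for Holstein 1 to 4 and 1.32, 1.46, 0.995 and 1.39 CPM for Angus 1 to 4 over 128 windows, 60.2% of them at 1 CPM or more. CDH13, T-cadherin, which is anchored in the membrane by a lipid and lacks a cytoplasmic tail, had 0.692 ± 0.16 CPM over 326 windows, with 19.0% at 1 CPM or more and 0.436 ± 0.17 CPM in its first window. Together CDH4, CDH13 and CDH23 held 25.3% of the single-gene windows and 74.9% of those at 1 CPM or more, 239 of 319.

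Delta protocadherins averaged 0.210 ± 0.056 CPM over 605 windows, of which PCDH9 held 386 and PCDH7 158, so the average mostly follows these genes. PCDH1, which is also expressed in airway epithelium, was highest with 2.73 ± 0.29 CPM over 6 windows, and its highest window (chr7:54626546-54629545) had 5.79 ± 0.84 CPM. PCDH9 was lowest with 0.172 ± 0.054 CPM over 386 windows. In PCDH7, chosen after its values were seen, the first window had 2.23 CPM and the other windows averaged 0.175 CPM. Of the remaining protocadherins, PCDH12, an endothelial protocadherin, had 1.08 ± 0.27 CPM and PCDH15 0.295 ± 0.040 CPM.

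**Figure D3:**
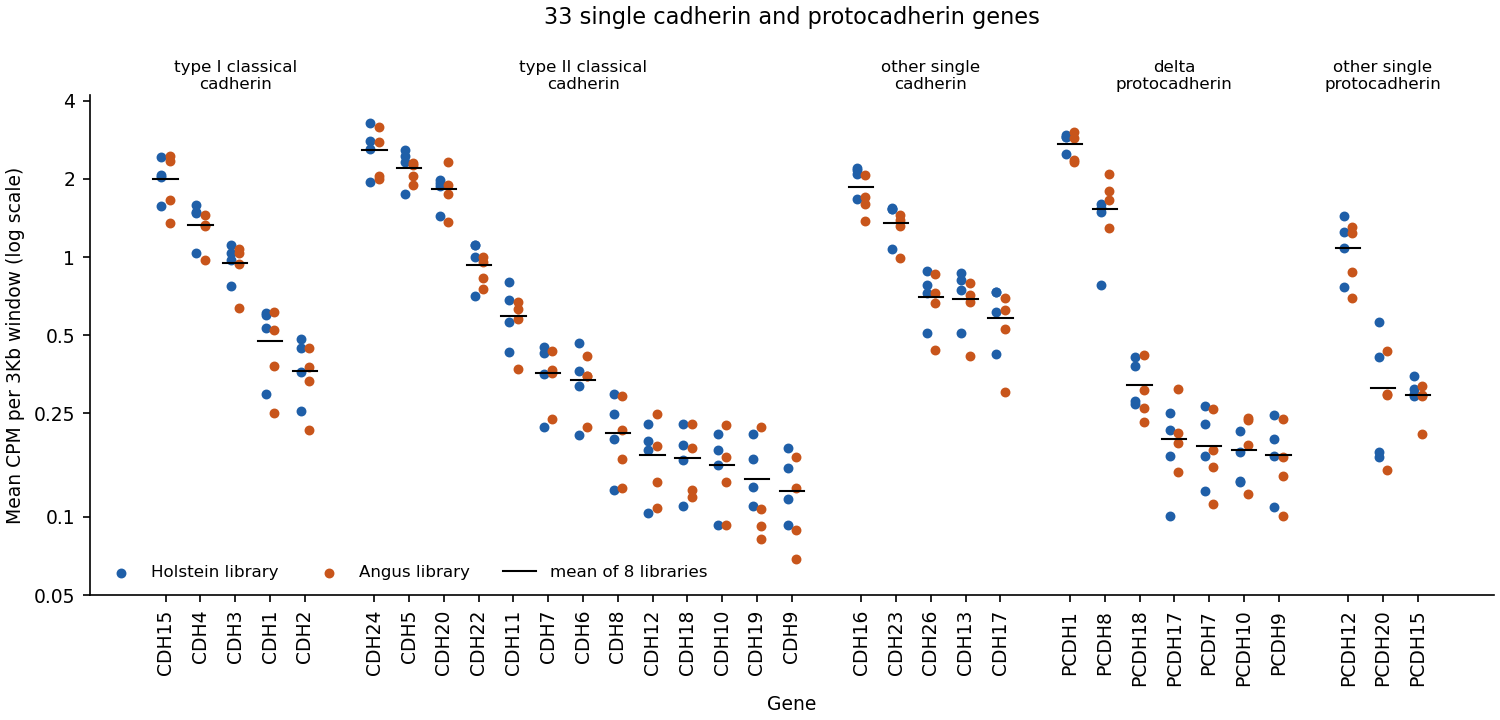
Mean CPM per 3Kb window (log scale) of the 33 single genes by role class, with 4 Holstein and 4 Angus libraries as points and the mean of 8 as a line. Levels run from 0.125 CPM in CDH9 to 2.73 CPM in PCDH1, and on CPM by library totals, as drawn, the points of both breeds overlap in every gene. On the TMM library sizes of the breed test the breeds did not overlap in PCDH8.

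The level of PCDH15 rested on 1 window. At chr26:4829331-4832330, a window without a coding exon, 1066, 651, 1408 and 1280 reads were counted for Holstein 1 to 4 and 956, 1106, 1728 and 431 for Angus 1 to 4, a mean of 40.5 ± 13.0 CPM, while the windows on either side had 1 to 9 and 1 to 3 reads. The highest coverage in this window was 90.2 to 94.6% of its reads, so nearly all reads lay over the same bases. Without it the mean of PCDH15 was 0.163 CPM, and the other single protocadherins had 0.179 in place of 0.308 CPM. A second such window lay in CDH13 (chr18:9833398-9836397, no coding exon), with 8.04, 10.6, 9.53 and 7.07 CPM for Holstein 1 to 4 and 8.03, 8.62, 2.18 and 9.10 CPM for Angus 1 to 4 and 92.3 to 97.5% of the reads stacked. Its neighbours had 0.662 and 0.659 CPM. Angus 3 stood apart from the other 7 libraries in this window. The third was a PCDHA6 window (chr7:53615546-53618545) with 26 to 52 reads.

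Windows were called stacked when every library had at least 20 reads and a highest coverage of at least 50% of the reads. This limit was set after the values were seen. It held for 3 of 209 member windows with enough reads (1.44%) and for 552 of 67085 such windows on chromosomes 1 to 29 (0.823%). In clustered windows the highest coverage took a larger share of the reads, with a median of 25.3% in 28 windows against 18.6% in 181 single-gene windows. By the median over the libraries it passed 50% in 5 of the 28, namely 2 windows of PCDHB2 and 1 each of PCDHA6, PCDHB11 and PCDHGB4. Whether reads that match several places take part in this was not tested.

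By position within the gene, the first windows of the single genes had a mean level 1.55 ± 0.12 times that of the other windows (1.38, 1.44, 1.57 and 1.61 for Holstein 1 to 4 and 1.45, 1.68, 1.57 and 1.71 for Angus 1 to 4), where over all genes of several windows the ratio was 0.977 ± 0.041. When each gene counted once, in place of each window, the ratio was 0.871. Gene by gene, the first window lay above the mean of the others in 13 of 33 genes and below it in 20. Of the 33 first windows, 23 held a coding exon, against 325 of all 2433 single-gene windows. Single-gene windows with a coding exon had 2.49 ± 0.32 times the level of those without one. The part of this in the first-window ratio was not tested. The last windows were 2.46 ± 0.32 times the others, against 1.49 ± 0.071 over all genes, and the last window lay above the first in 19 of 33. This last-window ratio pools windows, so genes with many windows weigh most among the others. It was not worked out with each gene counted once.

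The breeds were compared to ask which cadherin and protocadherin regions differ in methylation between the dairy and the beef breed. No member window was called a differentially methylated region (DMR) in edgeR's likelihood-ratio test at FDR < 0.1 and FC ≥ 2. Of the 2567 windows, 373 passed the filter of 1 CPM in at least 4 samples (333 single and 40 clustered), and over all 115360 windows tested 267 were called (0.231%). The latter include windows outside chromosomes 1 to 29. When only those chromosomes were used, 0 of 461 member windows were called, against 153 of all 139228 windows. At an unadjusted p under 0.05 there were 15 member windows, where 4.94% of all windows passed. Of these, 12 had the higher estimate in Angus (2.58% of all windows) and 3 in Holstein (2.36%). The quasi-likelihood test and DESeq2 also called 0 member windows, where each called 141 of all 115360 windows. They gave 14 and 11 member windows at an unadjusted p under 0.05, where 4.47% and 3.29% of all windows passed. Summed by gene, 56 of 60 passed the filter and 0 were called, against 11 of 18428 genes (0.0597%). At an unadjusted p under 0.05 there were 5 genes, where 2.02% of all genes passed. All 5 had the higher estimate in Angus (1.3% of all genes) and 0 in Holstein (0.722%). The quasi-likelihood test and DESeq2 gave 4 each and called 0. The test did not show that the breeds are alike. The interval of the log2 fold change, at 95%, stayed within 2-fold in 370 of the 373 windows. The others were the named PCDHGB4 and CDH16 windows and a PCDH17 window (log2 fold change -0.49 ± 0.28). Among the genes it stayed within 2-fold in 55 of 56, the exception being PCDH10 (-0.47 ± 0.30).

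The 5 windows with the smallest p did not pass the adjustment in edgeR's likelihood-ratio test. They are given as log2 fold change of Holstein over Angus ± SE. The first window of CDH20 (chr24:60531931-60534930, coding exon 1) had -0.49 ± 0.17 (FDR 0.400), with 1.36, 1.93, 1.94 and 2.24 CPM for Holstein 1 to 4 and 2.68, 2.48, 2.53 and 3.29 CPM for Angus 1 to 4 on TMM library sizes. On this scale all Angus libraries lay above all Holstein libraries. By library totals the breeds overlapped, with 1.11 to 2.73 CPM for Holstein and 1.71 to 3.85 CPM for Angus. The first window of PCDH8 (chr12:10937422-10940421), an activity-regulated delta protocadherin, had -0.57 ± 0.20 (FDR 0.463) and the breeds overlapped. The first PCDHA13 window had -0.55 ± 0.20 (FDR 0.481). Its TMM-scaled levels were 6.01, 5.60, 5.94 and 5.55 CPM for Holstein and 6.16, 7.21, 12.5 and 8.19 CPM for Angus, again without overlap. By library totals the breeds overlapped, with 4.91 to 6.76 CPM for Holstein and 5.86 to 9.58 CPM for Angus. Without Angus 3, which had the highest level on TMM library sizes, the log2 fold change was -0.32. By library totals the highest was Angus 4, with 9.58 CPM against 8.43 CPM in Angus 3. The first PCDHGB4 window (chr7:54152546-54155545) had -0.61 ± 0.22 (FDR 0.485), with overlap. The first CDH16 window (chr18:34742798-34745797, no coding exon) had 0.62 ± 0.23 (FDR 0.552). On TMM library sizes it had 1.36 to 1.74 CPM for Holstein and 0.412 to 1.27 CPM for Angus. By library totals the breeds overlapped, with 1.11 to 1.95 CPM for Holstein and 0.482 to 1.39 CPM for Angus. Without Angus 4 the log2 fold change was 0.38.

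**Figure D4:**
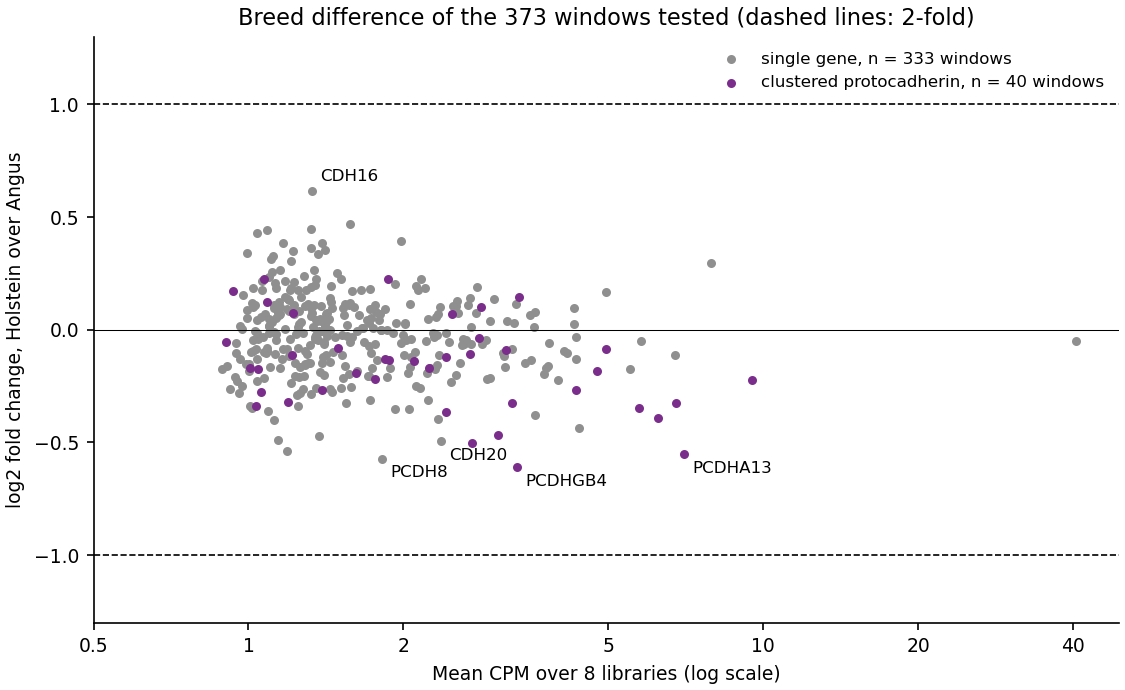
Log2 fold change of Holstein over Angus against mean CPM (log scale) for the 373 member windows tested, single genes in grey and clustered protocadherins in purple, with the 5 smallest p named. All points lie within the dashed 2-fold lines, between -0.61 and 0.62.

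By gene, PCDH8 had the smallest p, with a log2 fold change of -0.51 ± 0.15 (FDR 0.341 in edgeR's likelihood-ratio test and 1.00 in the quasi-likelihood test). On TMM library sizes its 2 windows together had 2.09, 2.60, 2.70 and 2.52 CPM for Holstein 1 to 4 and 3.28, 3.86, 3.93 and 3.24 CPM for Angus 1 to 4. On this scale the breeds did not overlap in PCDH8. By library totals they did, with 0.784 to 1.60 CPM per window for Holstein and 1.29 to 2.09 for Angus. PCDH17, another delta protocadherin, had -0.41 ± 0.17, PCDHB14 -0.51 ± 0.21, PCDHGA2 -0.47 ± 0.23 and PCDHB7 -0.31 ± 0.15, each with an FDR of 1.00. A single Angus library moved 3 of these by more than 1.5 times. PCDH17 came to -0.25 without Angus 1, PCDHB14 to -0.33 without Angus 3 and PCDHGA2 to -0.25 without Angus 4. Complete separation of the breeds on TMM-scaled CPM was found in 9 of 373 member windows, where 2.63% of all windows separated, and 6 of the 9 were higher in Angus, where 1.25% were. By gene it was found in 2 of 56, PCDH8 and PCDHB6, where 1.36% of all genes separated, both higher in Angus, where 0.738% were. PCDHB6 was chosen after its values were seen.

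Among clustered windows that passed the filter, 32 of 40 had a higher estimate in Angus, with a median log2 fold change of -0.17. Over all 115360 windows 50.4% did, with a median of -0.002, and in single-gene windows 179 of 333, with a median of -0.016. With library totals in place of TMM all windows shifted together, to a median of 0.140 with 22.5% higher in Angus. On that scale 19 of 40 clustered windows had a higher estimate in Angus, with a median of 0.004, again below the median of all windows. Without Holstein 1 and Angus 3, 25 of 39 clustered windows had a higher estimate in Angus, with a median of -0.080. Over all windows 50.1% did in that setting, with a median of -0.0004, and in single-gene windows 154 of 332, with a median of 0.023. By gene, 45 of 56 members had a higher estimate in Angus (56.9% of all genes), 17 of 56 with library totals (10.4%), and 37 of 56 without those libraries (54.3%). No test was run on these counts.

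The catenins and the remaining cadherin superfamily were looked at beside the members. Of 15 catenin genes, which link cadherins to the cytoskeleton, 13 were named in the files and tested, and 0 were called by edgeR's likelihood-ratio test, with 0 at an unadjusted p under 0.05. The median log2 fold change was -0.074, the range -0.20 to 0.061, and the mean level 0.378 CPM over 1657 windows. Of 25 other superfamily genes, among them desmosomal cadherins and FAT genes, 23 were tested and 0 were called, with 0 at an unadjusted p under 0.05. Their median was -0.055, the range -0.23 to 0.28, and the mean level 0.830 CPM over 915 windows.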

How the data were processed

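MIRA-Seq libraries of 4 Holstein and 4 Angus fibroblast cultures were grouped by breed from their labels. The authors aligned the reads to UMD v3.1 with NextGENe 2.3.4 and deposited raw counts of reads per 3Kb window, without normalization, with the highest coverage of each window as an unscaled signal. Base calling is listed as CASAVA 1.7 in the submitters' processing notes. How duplicates were handled, and reads with several matching places, is not given in the sources used here. Pull-down counts also follow the number of CpG sites in a window, which was not analysed here because no genome of this build was used.

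Each window carried at most 1 gene name, and the first and last windows of a gene were set by strand. Of the 60 gene symbols, 40 were found in the RefSeq table of a later assembly, which was used for names only; no sequence is shown.

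Breeds were compared in R 4.3.3 with edgeR 4.0.16 on all windows, or on counts summed by gene (TMM, 1 CPM or more in 4 or more samples, likelihood-ratio test, Benjamini-Hochberg adjustment over all features tested). The likelihood-ratio test, the CPM filter and the adjustment follow the study's methods, whereas TMM and the summing of windows by gene name were chosen here. The SE is the log2 fold change divided by the root of its chi-square value. Levels were computed in Python 3.11.15 with pandas 2.3.3. Other scalings, filters and thresholds, a block by animal number, samples left out, DESeq2 1.42.0 and the quasi-likelihood test were tried as alternatives. Named were the members with the 5 smallest p, the highest and lowest gene of each role class, the 5 highest windows of single and of clustered genes, the 2 highest and lowest clustered genes, and CDH1, CDH2, CDH5, CDH11, CDH13, CDH23 and PCDH15. PCDH7, PCDHB6 and the members given beside small counts were named after their values were seen. Members, lists and rules were chosen with earlier results of these data known. The precision is that of 18691111 to 35525554 reads per library. The same animal numbers in both breeds did not pair the libraries. Each library is a separate animal, and technical and animal spread were not separated.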

Additional observations from a re-analysis of the deposited data

Results flagged for a closer look

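Groups of 4 libraries were checked by Dixon's criterion, which flags about 1 in 20 independent groups by chance. The groups share the same 8 libraries, and some members were named for their small p, so this rate is a rough guide only. Of 80 groups, 8 held 1 library far from the other 3. In 5 of them the library was Holstein 1, with the low value: CDH23 with 1.08 CPM per window (others 1.52 to 1.54), PCDH1 with 2.49 (2.90 to 2.96), PCDH8 with 0.784 (1.49 to 1.60), PCDHB14 with 1.29 (1.47 to 1.49) and the first CDH16 window with 1.11 CPM (1.83 to 1.95). Angus 3 was low in the stacked CDH13 window with 2.18 CPM (8.03 to 9.10). Angus 1 was low in PCDHA2 with 3.21 (3.83 to 3.91), and Angus 4 was high in PCDHGA2 with 2.68 (1.34 to 1.48). Holstein 1 and Angus 3 also had the lowest mean levels over all windows with a gene name. CPM is scaled to the reads in all windows, and these libraries also had the smallest share of them on chromosomes 1 to 29. It was 78.3% in Holstein 1 and 72.5% in Angus 3, against 81.5% to 86.7% in the others. The flags rest on CPM by library totals. On the TMM library sizes of the breed test, Holstein 1 was the highest Holstein library in PCDHB14. Its windows together had 3.44 CPM there, against 2.39 to 2.67 CPM in the others. On the same scale Holstein 1 stayed the lowest Holstein library in PCDH8, with 2.09 CPM, and in the first CDH16 window, with 1.36 CPM. CDH23 and PCDH1 were not worked out by library on that scale. The part of the low levels and of this share in the flagged values was not tested.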

How the results depend on the processing

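The counts of 0 called windows and 0 called genes held under the quasi-likelihood test, DESeq2, library totals, size factors, 1 CPM or more in all 8 samples, chromosomes 1 to 29 only, FDR < 0.05, no fold change minimum, without Holstein 1 and Angus 3, and in the range of 0 to 0 when each sample was left out. Without the CPM filter 1 window was called, a CDH13 window without a coding exon (chr18:10031398-10034397, log2 fold change 2.12, FDR 0.0127, 11, 3, 17 and 18 reads for Holstein 1 to 4 and 7, 0, 2 and 1 for Angus 1 to 4), where 905 of 887821 windows (0.102%) were called. Holstein 2 and 3 of the 4 Angus libraries lie at or below 3 reads, the smallest count told from 0, and Angus 1 above it, so depth limits this value. At an unadjusted p under 0.05 in edgeR's likelihood-ratio test, library totals gave 4 windows and 0 genes in place of 15 and 5. All 4 windows were higher in Holstein, whereas 12 of the 15 on TMM library sizes were higher in Angus. With library totals 2.72% of all windows passed, 2317 higher in Holstein and 825 in Angus, and 0.651% of all genes. Same-numbered libraries of the breeds had correlations of -0.21 to 0.11, so the numbers give no pairing; with the replicate block 0 windows and 0 genes were called, and no library correlated best with its own number. Of the named members, the first PCDHGB4 window came to an FDR of 0.00545 without Angus 2 and 0.0777 with the replicate block, and the first PCDH8 window to 0.0268 without Angus 4, at fold changes under 2; all 10 kept their direction and none was called in the 12 settings tried for each, although the log2 fold changes of the PCDHA13 and CDH16 windows and of PCDH17, PCDHB14 and PCDHGA2 moved by more than 1.5 times when 1 Angus library was left out. With library totals the log2 fold change was -0.32 in PCDH8, -0.22 in PCDH17, -0.31 in PCDHB14, -0.30 in PCDHGA2 and -0.15 in PCDHB7. The first-window ratio of single genes was 2.10 by medians over windows and turned to 0.871 when each gene counted once, and 1.53 to 1.58 with a sample left out. The ratio of clustered to single windows was 1.62 by medians over windows, 1.91 with each gene counted once and 2.08 to 2.25 with a sample left out. The limits of stacked windows, Holstein 1 and Angus 3 were set after the data were seen; without stacked windows the ratios were 1.62 and 2.28. Windows that carry a second gene name could not be left out, because there are none. Of the 2567 windows, 2194 did not pass the filter and were not tested.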
